A study of Mus musculus with 214 samples.

Results

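Liver RNA of Mgmt-/- mice was followed over the first 5 days after N-nitrosodimethylamine (NDMA), and the libraries of day 1, day 2 and day 5 were compared with each other. The 24 NDMA libraries, out of 214 samples in the series, were those of 1 sequencing run, with 8 libraries per day from 4 males and 4 females. All mice carried the genotype RaDR+/+; GPT+/+; Mgmt-/- on a C57BL6 background, so the fluorescent recombination reporter, the mutation reporter and the absence of Mgmt were shared by treated and control mice. NDMA was given intraperitoneally at 3.5 mg/kg on postnatal day 8 and at 7 mg/kg on postnatal day 15, and days were counted from the second dose, which put the mice at 16, 17 and 20 days of age. Controls received the same volumes of saline, and the change of the growing liver was read in 8, 7 and 6 saline libraries of the same run on days 1, 2 and 5. Whole litters were assigned to NDMA or to saline, and the litter of each mouse was not known here, so treatment and litter cannot be told apart.

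NDMA is turned into a methylating agent by the cytochrome P450 enzyme Cyp2e1 in the hepatocytes around the central vein. MGMT removes methyl groups from damaged guanine, and in its absence the lesion persists and mispairs during replication, which leads to strand breaks and activation of p53. p53 induces genes of cell cycle arrest, apoptosis and repair, while fragments of DNA in the cytosol can trigger interferon signalling, which in turn induces chemokines and antigen presentation. The liver of a mouse of this age is itself still maturing, since hepatocytes still divide and the zonation of metabolism is still being set up.

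Values were normalized counts per gene, that is, the counts deposited after division by a size factor per library. The libraries held 1672388 to 4959721 reads (median 3137091), and this depth limits the precision of genes of low value. Differences were estimated with limma on log2(value + 1) over 9571 genes, with sex as a covariate, and genes passed, or were called, when the log2 difference exceeded 0.58 in size and the p-value adjusted after Benjamini and Hochberg lay below 0.05. Fold changes on this scale understate the change of low genes. In whole tissue, fewer cells of a type and less RNA per cell cannot be told apart.

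Before the results, the libraries that stood apart are given. Of 8 saline day 5 libraries, 2 carried kidney transcripts and were left out, with Kap (a kidney androgen-regulated protein) at 6147 and 7562 against at most 1.80 in the libraries kept. These libraries were chosen by their measured Kap values, and no result is read from Kap. Mgmt itself reached at most 8.54 in the 45 libraries (median 0.721). The labelled sex matched the sex-linked transcripts in every library. Among the saline controls, 6 libraries stood apart in cholesterol synthesis. Hmgcs1, which makes the HMG-CoA used for sterol synthesis, was at 1487 and 3518 in 2 of the day 2 saline libraries and at 149 to 178 in the other 5. On day 5 it was at 339, 1661, 2155 and 3142 in 4 saline libraries and at 175 and 187 in the other 2. On day 1 it was at 90.0 to 211 in all 8, and all 24 NDMA libraries were at 43.3 to 85.5. Of the 328 genes that rose in saline from day 1 to day 5, 44.2% had all 4 of those day 5 libraries above the other 2, against 8.56% of all genes tested. Of the 601 that fell, 20.1% had all 4 below the other 2, against 10.8% of all genes. Results that rest on these controls were therefore computed also without these 6 libraries, which left 2 saline libraries on day 5. Those values stand beside many of the terms and lists below, but not beside all that moved. No treatment by day term was called in that fit, so every term given below as called was lost there or, for A1bg, Aacs, Ces4a and Serpina9, not tested there. The mice also came from more than 1 series of identity numbers. The mice of days 2 and 5 all came from a single series, whereas 5 of the 8 NDMA mice and 4 of the 8 saline mice of day 1 came from other series, so results that involve day 1 were also computed within the shared series, where 3 NDMA and 4 saline mice remain on day 1.

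The labelled tissue was checked against liver markers. The mean of Alb, Apoa1, Serpina1c, Fgb and 1 further liver marker was at a median of 39774, 48229 and 51414 in NDMA livers on days 1, 2 and 5, and at 61626, 72553 and 68763 in saline livers. Alb, the major plasma protein of hepatocytes, rose within the NDMA livers, from a median of 76189 on day 1 (46368 to 79696) to 103795 on day 5 (84845 to 149832), without overlap (log2 difference 0.64 ± 0.11 SE, adjusted p = 5.0e-05). The Alb call ended on leaving out any of 3 single libraries. None of the 5 kidney markers reached a mean of 5.

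The first question was how much the NDMA transcriptome moved within these 5 days. Between day 1 and day 2, 266 genes rose (2.78% of those tested) and 176 fell (1.84%). Between day 2 and day 5 the changes were fewer, with 70 genes higher (0.731%) and 37 lower (0.387%). From day 1 to day 5, 538 genes rose (5.62%) and 589 fell (6.15%). In the saline livers 10 genes rose (0.104%) and 7 fell (0.0731%) from day 1 to day 2. No gene was called from day 2 to day 5 in saline by limma (796 had an unadjusted p under 0.05), while DESeq2 called 2. From day 1 to day 5 in saline, 328 rose (3.43%) and 601 fell (6.28%), which dropped to 11 and 13 without the 6 saline libraries. When each library was instead scaled to the same total, the median of all genes moved by −0.35 from day 1 to day 5 in NDMA livers and the split became 180 higher and 2237 lower, so the balance of rises and falls depended on the scaling.

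Some of these genes were also called in saline livers. Of the 538 genes that rose in NDMA livers from day 1 to day 5, 129 also rose in saline (24.0% of the NDMA genes and 39.3% of the saline genes), 407 were not called in saline and 2 fell. Of the 589 genes that fell, 169 also fell in saline (28.7% and 28.1%), 418 were not called and 2 rose. The count of genes called in saline from day 1 to day 5 was 929 with the 6 libraries and 24 without them, where 2 saline libraries remained on day 5, and the part of the smaller number in this loss was not tested. A call in one treatment and not in the other does not show a difference between them. The difference itself, the treatment by day term, was called for 28 genes above 0 (0.293%) and 23 below 0 (0.24%) between day 1 and day 5, for 2 above (0.0209%) and 1 below (0.0104%) between day 2 and day 5, and for none between day 1 and day 2 by limma and by edgeR (651 at an unadjusted p under 0.05, and 17 called by DESeq2). An F test of both steps of the term together passed 17 genes (0.178%). Leaving out single libraries moved the count from day 1 to day 5 between 15 (without 1 saline day 5 male) and 103 (without 1 saline day 5 female). Without the 6 saline libraries, none of these terms was called. In the shared mouse series, 71 were above 0 and 35 below between day 1 and day 5.

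**Figure D1:**
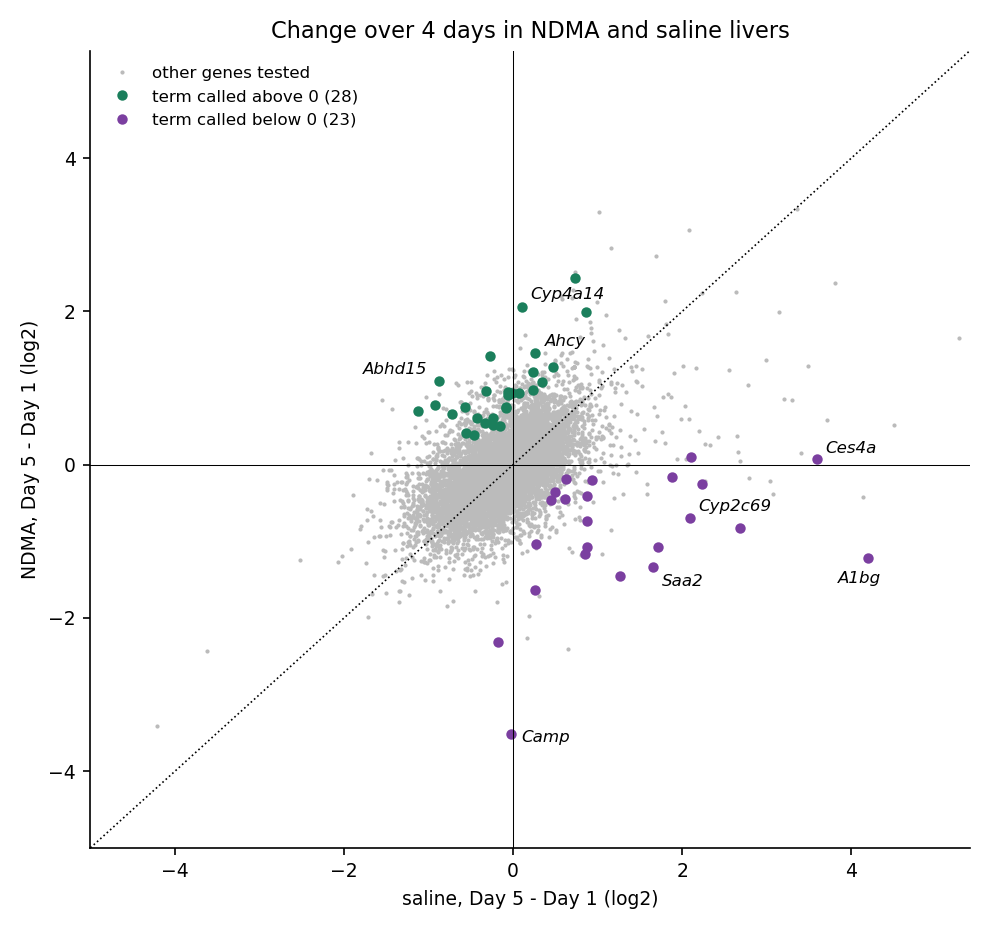
Change from day 1 to day 5 of each tested gene in saline livers (x axis, log2) against NDMA livers (y axis, log2), with 1 point per gene and the genes whose treatment by day term was called in colour. The 28 genes above and the 23 below stand away from the diagonal of equal change.

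Taken step by step, 13 NDMA genes rose both from day 1 to day 2 and from day 2 to day 5, and no gene fell at both steps. The 13 were Ahcy, Gstm1, Cyp2c50, Cyp2c54, Ugt3a2 and 8 Ugt1a symbols, which share their 3′ exons and so count as 1 signal here. Gstm1, a glutathione transferase, was at 1487 to 4989 on day 1 (median 2191), 3574 to 5257 on day 2 (median 4206) and 5517 to 8984 on day 5 (median 7576). Day 2 and day 5 did not overlap. Saline livers had medians of 1370, 1806 and 4521, and the term from day 1 to day 5 was 0.08 ± 0.31 (adjusted p = 0.97). Ahcy, which clears S-adenosylhomocysteine, the product left by methyl transfer, went from 56.3 to 177 on day 1 (median 137) through 165 to 293 (median 219) to 253 to 478 on day 5 (median 333). Its saline values lay between 299.7 and 650 throughout. The 2 steps of Ahcy were 0.83 ± 0.15 (adjusted p = 0.00024) and 0.62 ± 0.15 (adjusted p = 0.023).

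Only 5 genes rose to day 2 and fell again by day 5, namely Apoc2, Itih5, Klhl13, Qpct and a predicted gene. Apoc2, the cofactor of lipoprotein lipase, was at 3002 to 5677 on day 1 (median 4259), 6242 to 8742 on day 2 (median 6891) and 3484 to 6675 on day 5 (median 4310), and saline livers stayed at medians of 2097, 2452 and 1646. Its day 2 values lay above all day 1 values, and its treatment by day term from day 2 to day 5 was −0.26 (adjusted p = 0.90). No gene met the rule of a day 2 peak in the term itself. That rule needs a called term from day 1 to day 2, and limma called none, so no gene could meet it. Another 4 genes fell to day 2 and rose again, among them Lect2 and Etnk2. Lect2, a chemotactic protein secreted by hepatocytes, was at 485 to 1782 on day 1 (median 724), 338 to 813 on day 2 (median 435) and 513 to 1164 on day 5 (median 867), with saline between 1685 and 3227. Etnk2, an ethanolamine kinase of phospholipid synthesis, went from a median of 118 to 69.0 (50.0 to 98.2) and back to 154 (102 to 201), so that day 2 and day 5 did not overlap, against saline medians of 147, 178 and 165. Their terms from day 2 to day 5 were 1.21 ± 0.24 and 1.08 ± 0.23 (adjusted p = 0.038 each), and both calls were lost without the 6 saline libraries (1.31 and 1.11) and on leaving out any of 16 and of 20 single libraries.

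**Figure D2:**
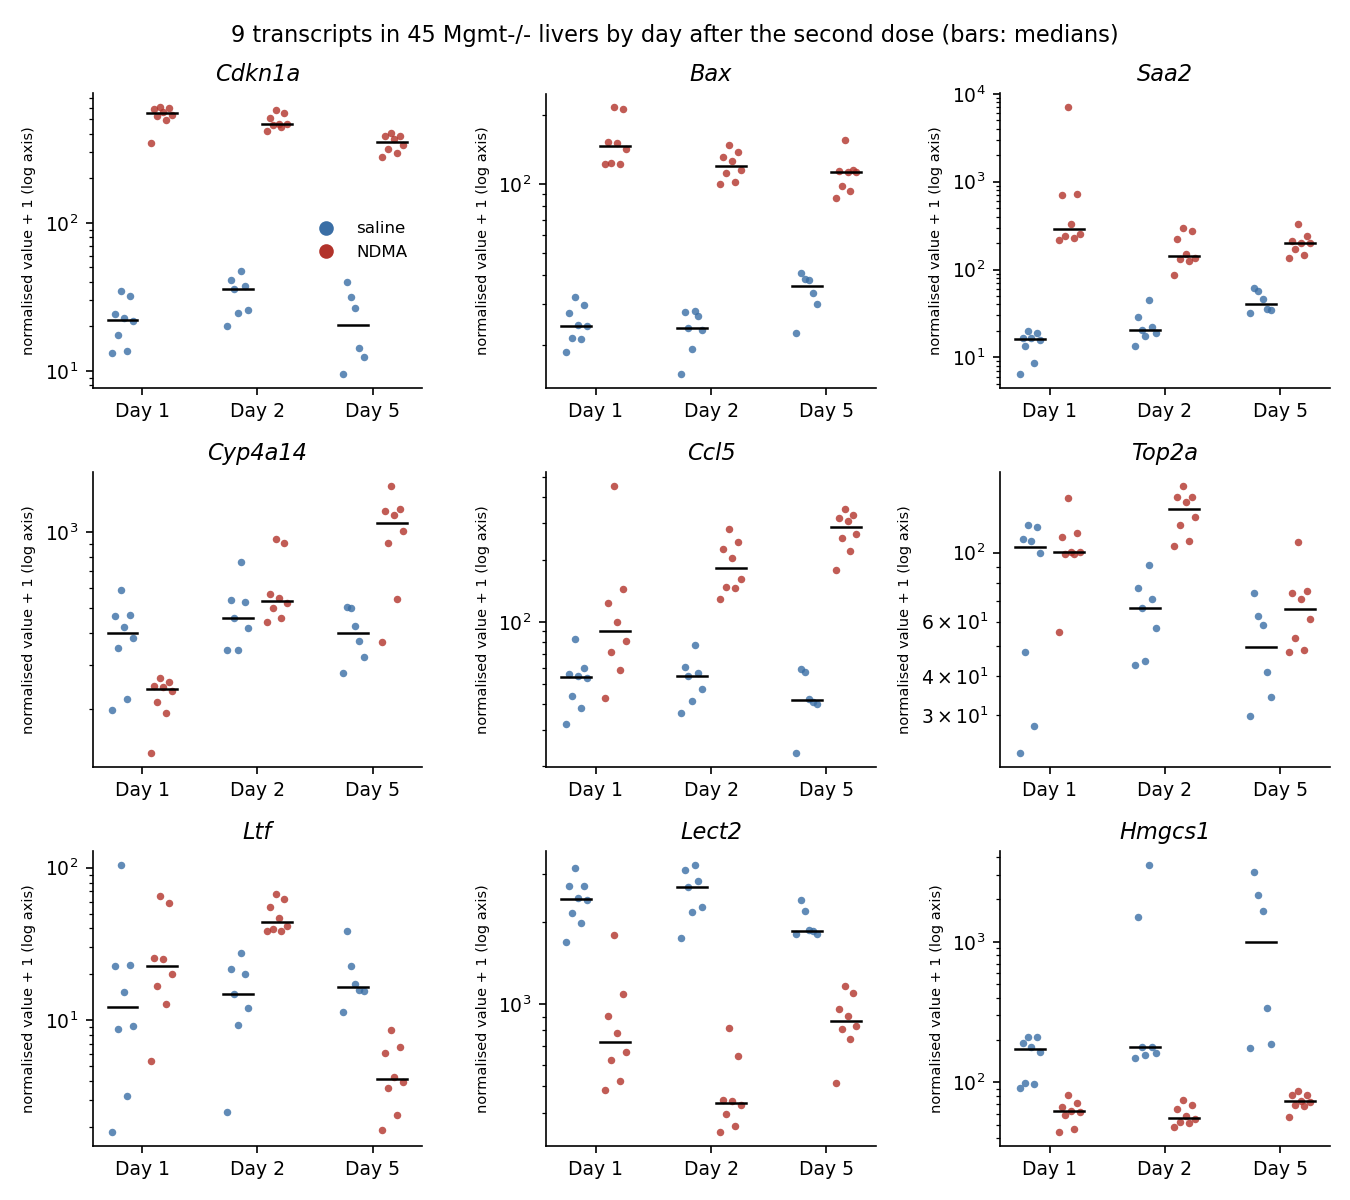
Normalized count + 1 (log axis) of 9 genes in each library, by day and treatment, with bars at the medians. Cdkn1a and Bax stayed above saline on each day, Cyp4a14 and Ccl5 climbed in NDMA livers, Ltf fell after day 2, Lect2 dipped on day 2, and Hmgcs1 shows the 6 saline libraries that stood apart.

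The next question was how the p53 targets ran over these days. Cdkn1a (p21, an inhibitor of cyclin-dependent kinases; GRCm38 chr17:29090976-29100727, plus strand) was at 347 to 606 on day 1 (median 548), 419 to 576 on day 2 (median 464) and 278 to 403 on day 5 (median 348). Saline livers were at 12.2 to 33.4, 19.2 to 46.1 and 8.49 to 38.6, so the treatments never overlapped, and day 5 lay below day 2 in every NDMA library. NDMA minus saline was 4.63 ± 0.21 (adjusted p = 2.0e-23), 3.92 ± 0.21 (adjusted p = 5.4e-20) and 4.13 ± 0.22 (adjusted p = 5.0e-20) on the log2 scale, or 24.7-, 15.1- and 17.5-fold. The fall within NDMA livers from day 1 to day 5 was −0.62 ± 0.21 (adjusted p = 0.034), a call that ended within the shared mouse series (−0.69) and on leaving out any of 8 single libraries, among them the library of day 1 whose reads could not be recovered (−0.58).

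The list of p53 targets in arrest and feedback had 14 tested members, of which 12, 11 and 13 were higher in NDMA livers on days 1, 2 and 5, where the background of genes called higher was 9.96%, 12.1% and 10.8%. Its median difference was 2.56, 2.72 and 2.36, against 0.02, 0.03 and 0.03 over all genes. From day 1 to day 5 none of the 14 rose in NDMA livers and 4 fell, against 2 in saline livers. The background of genes falling was 6.15% and 6.28%. Without the 6 saline libraries 4 fell in NDMA livers and none in saline livers, and within the shared mouse series 1 and none fell. Among the 4 was Mdm2, the ubiquitin ligase that degrades p53, which went from a median of 111 (63.6 to 178) to 69.2 (41.1 to 104). Mdm2 fell in saline livers too, by 0.85 ± 0.23 against 0.61 ± 0.22 in NDMA livers on the log2 scale, and the NDMA call ended on leaving out any of 10 single libraries. Eda2r, a death receptor of the tumour necrosis factor family, was at 20.3 to 44.3, 17.8 to 60.4 and 14.5 to 32.8 on the 3 days and at 0 to 1.35 in saline livers. Phlda3, which restrains Akt, was at 35.3 to 72.6, 34.1 to 56.4 and 29.3 to 43.9 against at most 5.96 in saline. Both were above saline without overlap on each day, and neither changed within NDMA livers by the test. The list of p53 targets in cell death (10 tested) had 8, 7 and 7 members higher, and that of repair (9 tested) had 3, 3 and 3. The repair counts were 3, 2 and 1 without the 6 saline libraries and 1, 3 and 2 of 8 within the shared mouse series.

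Bax, the pore-forming effector of apoptosis, was the 1 p53 target with a called term, below 0. It was at 121 to 216 on day 1 (median 145), 98.9 to 147 on day 2 (median 119) and 85.5 to 155 on day 5 (median 112) in NDMA livers, and at medians of 23.2, 22.7 and 34.9 in saline livers. All NDMA libraries lay above all saline libraries on each day. NDMA minus saline was 2.63 ± 0.15, 2.41 ± 0.15 and 1.72 ± 0.16, and the term from day 1 to day 5 was −0.91 ± 0.22 (adjusted p = 0.033). Neither the NDMA change (−0.47 ± 0.15) nor the saline change (0.44 ± 0.16, adjusted p = 0.057) was called. The term was −0.76 and not called without the 6 saline libraries and −1.23 and called within the shared mouse series, and leaving out any of 10 single libraries ended the call.

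Interferon-induced genes were high from day 1 and stayed so. Of all genes, 9.96%, 12.1% and 10.8% were higher in NDMA livers on days 1, 2 and 5. Of 23 tested interferon effectors, 21, 22 and 21 were higher, with medians of 1.45, 1.57 and 1.62. The guanylate-binding proteins and immunity-related GTPases, which act against intracellular microbes, had 17, 17 and 16 of 18 members higher, with medians of 2.25, 2.55 and 2.22. From day 1 to day 5, 7 of the 23 effectors rose in NDMA livers and 5 in saline livers, against 5.62% and 3.43% of all genes. Of the 18 GTPases 1 rose in NDMA livers (5.56%, near the background) and none in saline. On day 5, 15 of the 23 and 13 of the 18 were higher without the 6 saline libraries, and no member then rose in saline. No member of either list had a called term. Gbp2, which forms coats on the vacuoles of pathogens, was at 127 to 506 on day 1 (median 307), 206 to 781 on day 2 (median 350) and 259 to 533 on day 5 (median 367), and saline livers were at 10.0 to 34.9. The groups did not overlap on any day, and NDMA minus saline was 3.70 ± 0.27, 4.28 ± 0.28 and 3.96 ± 0.29. Ifit3, an antiviral effector, rose from a median of 83.5 (56.6 to 119) to 189 (143 to 296) without overlap (1.16 ± 0.18, adjusted p = 3.0e-06), while saline went from 31.3 to 46.0 (0.52 ± 0.19, adjusted p = 0.060) and the term was 0.64 ± 0.26 (adjusted p = 0.32).

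The promoters of these genes were searched on both strands for the interferon-stimulated response element (ISRE, here GAAA, any 2 bases and GAAA again). Among RefSeq promoters of 250 bases before to 50 after the start (GRCm38.p6), 3.99% of all promoters and 4.19% of those of tested genes held it, against 10 of 11 GTPase promoters, 12 of 20 interferon effector promoters and 56 of the 455 promoters found for the 584 genes higher on all 3 days with no called term (12.3%). The Gbp2 promoter is shown as an example, chosen with its values known, with the match in capitals on the opposite strand, 59 bases before the start (chr3:142620413-142620712, plus strand).
Gbp2: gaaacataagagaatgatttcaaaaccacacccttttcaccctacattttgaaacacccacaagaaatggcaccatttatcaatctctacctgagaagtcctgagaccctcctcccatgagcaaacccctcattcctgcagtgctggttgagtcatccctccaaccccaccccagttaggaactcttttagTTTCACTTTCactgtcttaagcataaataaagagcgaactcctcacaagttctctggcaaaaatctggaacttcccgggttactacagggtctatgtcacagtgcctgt

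MHC class II genes and T and NK cell markers were higher than saline on each day. The background was 9.96%, 12.1% and 10.8% of genes higher on days 1, 2 and 5, and 5.62% rising and 6.15% falling within NDMA livers. All 12 tested T and NK cell markers were higher in NDMA livers on each day, with medians of 1.71, 2.46 and 2.55, and all 6 tested MHC class II genes were higher with medians of 2.11, 3.01 and 2.58. On day 5, 9 of the 12 and 6 of the 6 were higher without the 6 saline libraries. Of 17 tested MHC class I genes, which present peptides to CD8+ T cells, 10, 15 and 11 were higher and none lower, with medians of 1.16, 1.21 and 1.22, and 1 rose and 1 fell from day 1 to day 5 in NDMA livers while 1 rose in saline livers, shares near the background. Within NDMA livers, 8 of the 12 T and NK markers and all 6 class II genes rose from day 1 to day 5 and none was called in saline livers, where the class II median change was 0.58 with 6 of 6 above 0. The treatment by day term was called for 1 of the 12 and 0 of the 6. The summed level of the T and NK markers, of which Cd52 was the most abundant, was at 309.9 to 1620 on day 1 (median 591), 575 to 1477 on day 2 (median 1001) and 790.5 to 1453 on day 5 (median 1091), against 116 to 311 in saline livers. Cd4, Cd8a and Cd3e were in the data but under the filter on low values, and B cells gave no such pattern, with 0 of 2 tested markers called. The count of rises since day 1 moved when day 1 was limited to the shared series, which kept 3 of the 8 NDMA mice. That fit changed both which mice stood for day 1 and how many, and these were not told apart. Within the shared mouse series, 1 of 12 T and NK markers and 0 of 6 class II genes rose from day 1 to day 5, and with libraries scaled to the same total 5 and 1 did.

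H2-Aa, a chain of the class II molecule that presents peptides to CD4+ T cells, was at 151 to 1367 on day 1 (median 231), 424 to 2403 on day 2 (median 560) and 407 to 1178 on day 5 (median 732), with saline at 39.1 to 168. The 3 NDMA mice of the shared series reached from 179 to 1367 on day 1 and the other 5 from 151 to 316. The value of 1367 came from the female whose reads could not be recovered. Its summed class II level was 2729, against 405 and 1188 in the other 2 mice of the shared series, and its summed T and NK level 1620, against 573 and 778. The part of this library in the lost rise within the shared series was not tested. Ccl5, a chemokine made by T and NK cells, was at 41.7 to 454 on day 1 (median 89.2), 127 to 279 on day 2 (median 182) and 178 to 349 on day 5 (median 285), against saline values of 22.1 to 81.4. It overlapped saline on day 1 and not on days 2 and 5. NDMA minus saline was 1.01 ± 0.28, 1.84 ± 0.29 and 2.69 ± 0.30, and the term from day 1 to day 5 was 1.69 ± 0.41 (adjusted p = 0.042). Cd3g, a chain of the T cell receptor complex, had medians of 21.4, 44.2 and 45.5 against 12.9, 11.4 and 8.50 in saline and a term of 1.27 ± 0.32 (adjusted p = 0.045). Without the 6 saline libraries the terms were 2.19 for Ccl5 and 1.33 for Cd3g, and within the shared mouse series they were 0.807 and 1.2, with neither called in either fit. Leaving out any of 22 single libraries for Ccl5, or of 24 for Cd3g, ended the call. That of Ccl5 was also lost with the kidney-transcript libraries kept.

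Cxcl9 and Ccl2 showed no called change between the days. Cxcl9, the interferon-gamma-induced ligand of Cxcr3, was at medians of 222, 278 and 301 (117 to 482 over all 24 libraries) against 5.01 to 35.6 in saline livers, and Ccl2, the monocyte attractant, was at medians of 107, 137 and 97.6 against 1.94 to 17.3. Both were called above saline on each day. Over the chemokine list, to be read against the same background and 8.59%, 7.83% and 6.44% of genes lower, 11, 12 and 11 of 14 tested members were higher and 1 was lower on each day, while 4 rose from day 1 to day 5 in NDMA livers, Ccl5 among them, and none did within the shared mouse series. Of 20 macrophage markers, 10, 14 and 15 were higher and 4, 0 and 1 lower, and without the 6 saline libraries 7 were higher on day 5. The 1 lower of 20 on day 5 is near the background. Within the shared mouse series none of the 20 was lower on day 1. Clec4f, a lectin of the resident Kupffer cells, was among the lower on day 1, a call lost within the shared series, at a median of 122 (68.3 to 268) against 250 in saline, and rose to 211 (160 to 245) by day 5 (0.67 ± 0.23, adjusted p = 0.043). Its difference from saline was no longer called on day 2 (−0.52 ± 0.24) or day 5 (−0.48 ± 0.25).

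Neutrophil granule transcripts went the other way. Of 7 tested markers 4 fell from day 1 to day 5 in NDMA livers and none in saline livers (background 6.15% and 6.28%), and 5 were lower than saline on day 5 (background 6.44%), or 3 without the 6 saline libraries. Camp, an antimicrobial peptide of neutrophil granules, was at 4.13 to 104 on day 1 (median 19.1), 1.81 to 21.6 on day 2 (median 5.96) and 0 to 4.39 on day 5 (median 0.781), while saline medians were 43.8, 46.4 and 44.2. On day 5 all NDMA libraries lay below all saline libraries. NDMA minus saline was −1.11 ± 0.55 (adjusted p = 0.14), −2.54 ± 0.57 and −4.60 ± 0.59, and the term was −3.49 ± 0.81 (adjusted p = 0.032). Ngp, another granule protein, showed medians of 24.1, 14.1 and 5.53 against 82.0, 53.5 and 77.6. The Camp term was no longer called without the 6 saline libraries (−3.64), within the shared mouse series (−3.55) and on leaving out any of 6 single libraries. Keeping the kidney-transcript libraries also ended it. Of the list, Ly6g, Csf3r, Cxcr2, Mmp8, Mmp9, Elane and Mpo were under the filter. The counts therefore rest on the 7 tested markers, Lcn2 among them.

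Ltf (lactoferrin) and Lcn2 departed from the other granule genes. Ltf was at 4.41 to 64.4 on day 1 (median 21.7), 37.2 to 66.3 on day 2 (median 43.1) and 0.910 to 7.62 on day 5 (median 3.08), and saline medians were 11.2, 13.8 and 15.5. Its NDMA values lay above saline on day 2 and below saline on day 5 without overlap. The change from day 2 to day 5 was −3.50 ± 0.52 (adjusted p = 6.7e-05) and the term over the same days −4.11 ± 0.78 (adjusted p = 0.038). This term was −4.25 without the 6 saline libraries, where the call was lost, and leaving out any of 15 single libraries ended it. Lcn2, an iron-scavenging protein that hepatocytes also make in injury, stayed at medians of 647, 332 and 579 against 27.8, 27.1 and 20.2 in saline. It was the member of the list higher on each of the 3 days.

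**Figure D3:**
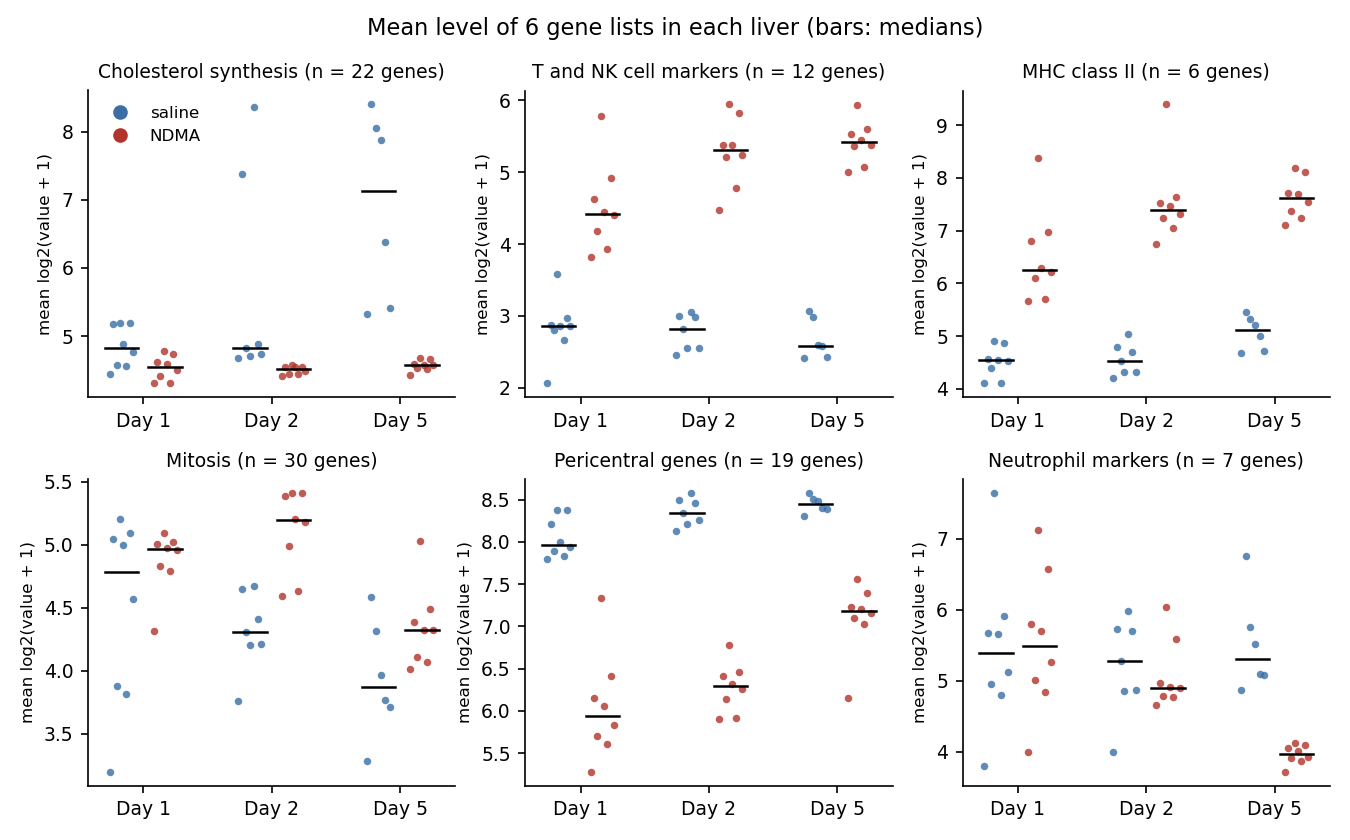
Mean log2(value + 1) over the members of 6 gene lists in each library, by day and treatment. Each point is a library. In NDMA livers 8 of 12 T and NK cell markers rose from day 1 to day 5 (1 within the shared mouse series). Of 30 mitosis genes 4 fell from day 2 to day 5. The saline libraries spread in cholesterol synthesis.

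Among genes of cell division, some mitosis genes were higher than saline. Of 30 mitosis genes, 7, 14 and 5 were higher than saline on days 1, 2 and 5 (23.3%, 46.7% and 16.7%, against a background of 9.96%, 12.1% and 10.8%), with medians of 0.32, 0.78 and 0.40. Within the shared mouse series 12, 16 and 7 of 29 were higher. The counts were 7, 11 and 7 of 30 without the 6 saline libraries. Between day 2 and day 5, 4 fell in NDMA livers, with a median of −0.77 against −0.03 over all genes, and 8 fell from day 1 to day 5. Of all genes, 0.387% and 6.15% fell over these steps in NDMA livers, and 6.28% fell from day 1 to day 5 in saline livers. In saline livers 3 fell from day 1 to day 5, the median being −0.57 against −0.54 in NDMA livers, and no member had a called term. Top2a, the topoisomerase that untangles chromosomes, was at 54.4 to 149 on day 1 (median 99.8), 104 to 163 on day 2 (median 137) and 46.8 to 107 on day 5 (median 65.0), and saline medians were 103, 65.3 and 48.8. On day 2 NDMA and saline did not overlap (1.10 ± 0.28, adjusted p = 0.0026), and they did on days 1 and 5. The fall from day 2 to day 5 was −1.03 ± 0.27 (adjusted p = 0.039). Rrm2, a subunit of ribonucleotide reductase, fell by 0.98 ± 0.26 over the same days (adjusted p = 0.041). Mki67, a marker of cycling cells, fell from a median of 27.2 to 9.44 in NDMA livers and from 45.8 to 12.9 in saline livers from day 1 to day 5 (−1.53 ± 0.38 and −1.29 ± 0.41). The saline call ended on leaving out any of 7 single libraries, and no single library ended the NDMA call.

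The day 1 controls were uneven in this respect. In saline mice of the shared series Top2a was at 21.6 to 98.8 on day 1, and in those of the other series at 108 to 122. Within the shared series 1 of 29 tested mitosis genes fell from day 1 to day 5 in NDMA livers and none in saline livers. With libraries scaled to the same total, 17 and 8 fell. Of 29 tested genes of DNA replication, 1, 3 and 2 were higher than saline on the 3 days. These shares (3.45%, 10.3% and 6.9%) lay under the background of 9.96%, 12.1% and 10.8%. The medians were 0.12, 0.26 and 0.12, nearer to all genes than those of the mitosis genes. In NDMA livers 3 fell from day 2 to day 5 and 4 from day 1 to day 5, against 0.387% and 6.15% of all genes. In saline livers 3 fell from day 1 to day 5 (background 6.28%). Within the shared series 1 of 28 fell in NDMA livers and none in saline livers. Pcna, the sliding clamp and also a p53 target, was at medians of 32, 38.9 and 30.3 in NDMA livers and 27.9, 33.3 and 25.9 in saline livers and was not called.

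The promoters of mitosis genes held the cell cycle homology region (CHR, searched as TTTGAA on both strands) in 19 of 25 cases (76.0%, against 15.1% of tested genes) and the CCAAT box in 21 of 25 (84.0%, against 43.3%). Cenpf, a kinetochore protein that fell from a median of 60.7 on day 2 to 24.8 on day 5 (−1.22 ± 0.29, adjusted p = 0.018), is shown as an example chosen with its values known, with 1 CHR match 2 bases after the start and 2 CCAAT boxes 132 and 71 bases before it in capitals (chr1:189688037-189688336, minus strand).
Cenpf: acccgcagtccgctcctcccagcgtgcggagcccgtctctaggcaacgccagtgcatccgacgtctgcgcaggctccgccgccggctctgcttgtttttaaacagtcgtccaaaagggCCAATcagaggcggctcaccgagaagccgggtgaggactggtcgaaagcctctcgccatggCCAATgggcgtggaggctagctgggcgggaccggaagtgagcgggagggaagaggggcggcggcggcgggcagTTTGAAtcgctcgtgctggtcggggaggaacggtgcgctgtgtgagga

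The enzymes of the central vein region, where NDMA is activated, were below saline on day 1, and 11 rose within NDMA livers by day 5, while no member had a called term from day 1 to day 5. Of 19 tested pericentral genes, 18, 17 and 13 were lower in NDMA livers on days 1, 2 and 5 (background 8.59%, 7.83% and 6.44%), with medians of −1.87, −1.75 and −1.12. Within NDMA livers 11 rose and 1 fell from day 1 to day 5, and in saline livers 3 rose. The background was 5.62% rising and 6.15% falling in NDMA livers and 3.43% rising in saline livers. The 1 of 19 that fell (5.26%) was near it. Within the shared mouse series 11 rose and none fell in NDMA livers, and 2 had a called term. On day 5, 7 were lower without the 6 saline libraries, and none then rose in saline livers. Of 24 tested periportal genes, 10 also rose in NDMA livers from day 1 to day 5 (16 within the shared mouse series). In saline livers 4 of the 24 rose, or 1 without the 6 saline libraries. Against saline on day 1, 5 of the 24 were lower and 7 higher (background 8.59% and 9.96%). Cyp2e1 was at 154 to 1447 on day 1 (median 228), 371 to 1709 on day 2 (median 687) and 383 to 2246 on day 5 (median 1708), against 2160 to 12909 in saline livers. The treatments did not overlap on any day. Its rise from day 1 to day 5 was 2.18 ± 0.39 (adjusted p = 0.00011), that of saline 0.70 ± 0.42 (adjusted p = 0.28), and the term was 1.48 ± 0.57 (adjusted p = 0.28), so the difference in change did not pass the test.

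Single pericentral genes took different steps, whose differences from each other were not tested. Cyp1a2, which oxidizes aromatic amines, was at medians of 156 on day 1 and 148 on day 2 and at 936 on day 5 (242 to 1554), a step of 0.27 ± 0.31 and then of 2.25 ± 0.31 (adjusted p = 2.6e-05). Cyp2c29 moved earlier, from a median of 968 to 2051 and then 2941, with steps of 1.2 ± 0.27 (adjusted p = 0.0045) and 0.56 ± 0.27 (adjusted p = 0.41). Glul, the glutamine synthetase of the innermost hepatocytes, was at medians of 96.5, 121 and 170 against 630, 744 and 943 in saline. Its difference from saline was −2.53 ± 0.15, −2.69 ± 0.16 and −2.46 ± 0.17. It rose in both treatments (0.71 ± 0.15 and 0.64 ± 0.17). Rgn, a lactonase of ascorbate synthesis, and Slc1a2, a glutamate transporter of pericentral hepatocytes, were among the genes lowest throughout. Slc1a2 was at medians of 2.32, 3.12 and 6.74 against 58.0, 76.9 and 112, with NDMA minus saline at −4.0 ± 0.41, −4.71 ± 0.42 and −3.81 ± 0.44.

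**Figure D4:**
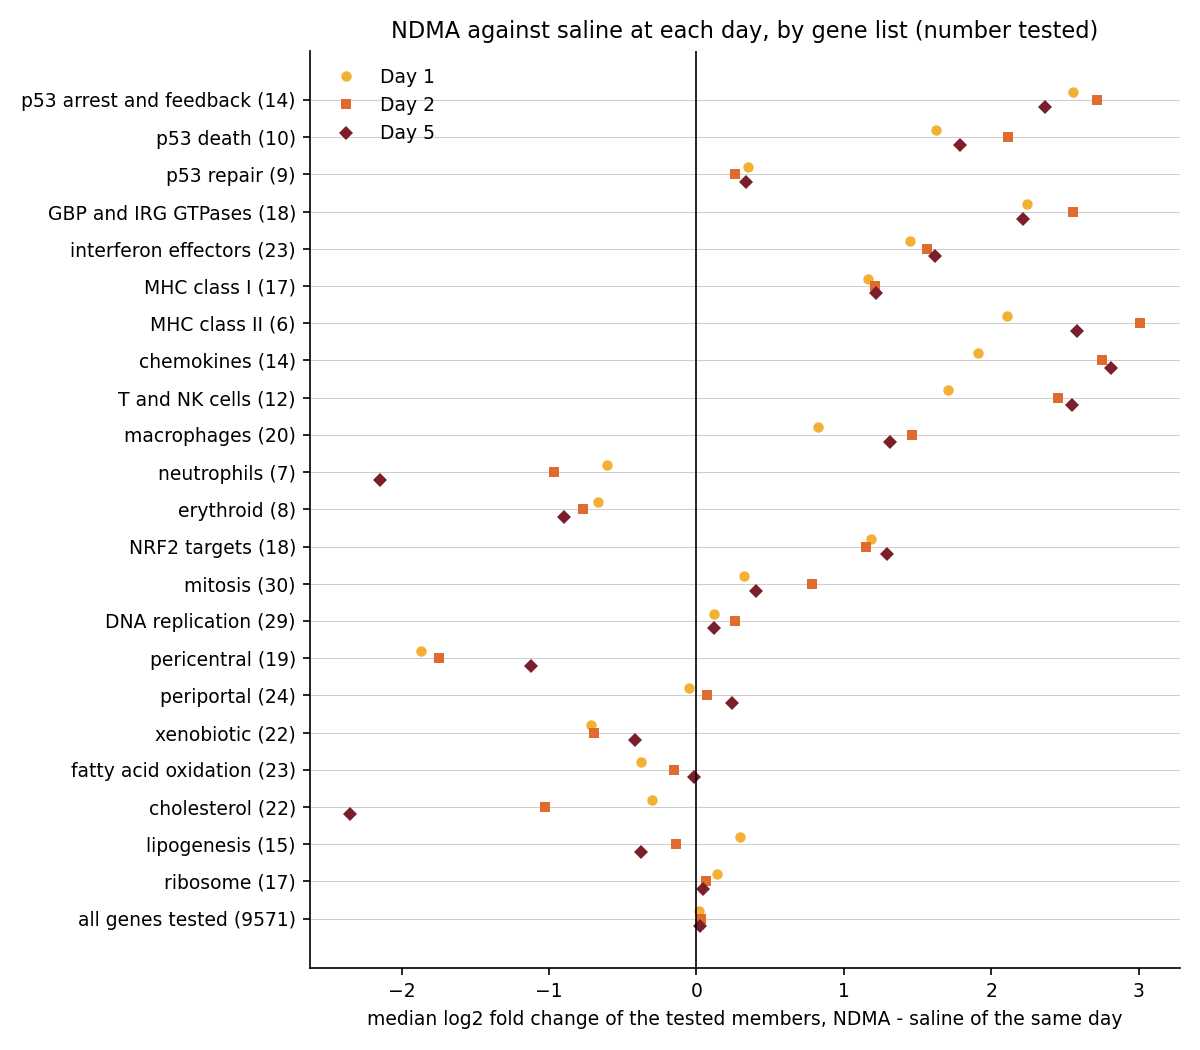
Median log2 difference of NDMA minus saline over the tested members of each gene list on days 1, 2 and 5. The p53, GTPase and class II lists lie above 0 on each day, the pericentral list rises from −1.87 to −1.12, and the cholesterol list falls from −0.30 to −2.35.

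Many detoxification genes rose within NDMA livers. Of 22 xenobiotic enzymes, 16 rose from day 1 to day 5 in NDMA livers and 12 in saline livers (background 5.62% and 3.43%), and 3 had a called term. Against saline 12, 11 and 8 of the 22 were lower and 0, 1 and 4 higher on days 1, 2 and 5. The background was 8.59%, 7.83% and 6.44% lower and 9.96%, 12.1% and 10.8% higher. The 1 of 22 higher on day 2 (4.55%) lay under it. Without the 6 saline libraries, 16 rose in NDMA livers and 2 in saline livers from day 1 to day 5. Against saline 12, 12 and 8 were then lower and 0, 1 and 3 higher. Cyp3a11, the main drug-oxidizing P450 of mouse liver, went from a median of 3631 to 8796 in NDMA livers and from 4973 to 11417 in saline (1.27 ± 0.16 and 1.40 ± 0.17), and its difference from saline was not called on any day. NRF2 regulates the response to electrophiles. Of its 18 tested targets, 12, 11 and 14 were higher than saline on days 1, 2 and 5 (background 9.96%, 12.1% and 10.8%). The counts were 13, 13 and 12 without the 6 saline libraries. From day 1 to day 5, 10 rose within NDMA livers and 6 in saline livers, or none in saline without the 6 libraries. Nqo1, a quinone reductase, rose from 42.7 to 104 on day 1 (median 70.8) through a median of 93.5 to 109 to 225 on day 5 (median 165), without overlap of day 1 and day 5, while saline medians were 30.4, 33.4 and 38.5. Gsta1, a glutathione transferase whose reads can be shared with a close paralog, was at medians of 43.0, 45.6 and 101 and at 0 to 1.82 in saline. Its rise of 1.02 ± 0.33 turned to −0.17 within the shared mouse series.

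A set of 13 genes was higher than saline on day 5 with a term from day 1 to day 5 above 0, and in all 13 the difference rose from day to day. It held Cyp4a14, Cyp4a10, Aldh3a2, Retsat, Fmo5, Tpmt, Gys2, Abcb1a, Det1, Defb1, Nln, Ccl5 and Cd3g. Cyp4a14, a fatty acid omega-hydroxylase that responds to PPAR alpha, was at 133 to 265 on day 1 (median 240), 442 to 937 on day 2 (median 536) and 367 to 1521 on day 5 (median 1088), and saline medians were 401, 456 and 398. Day 1 lay below both later days without overlap. NDMA minus saline went from −0.74 ± 0.23 (adjusted p = 0.016) through 0.34 ± 0.24 to 1.22 ± 0.25 (adjusted p = 0.00027), from below saline to above it. The term was 1.96 ± 0.34 (adjusted p = 0.0026). It was 1.90 without the 6 saline libraries, where the call was lost, and 2.28 within the shared mouse series, where it held. Its neighbour Cyp4a10, which may share reads with it, went from a median of 251 to 1641 (181 to 402 and 565 to 2529), with a term of 1.71 ± 0.41 (adjusted p = 0.037). The Cyp4a10 call ended on leaving out any of 17 single libraries and without the 6 saline libraries (1.38), and it held within the shared mouse series (2.07).

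Fmo5, a flavin monooxygenase, rose from 277 to 515 on day 1 (median 416) through 465 to 797 (median 582) to 796 to 1224 on day 5 (median 923), without overlap of day 1 and day 5, against saline medians of 496, 574 and 584. Aldh3a2, which oxidizes fatty aldehydes, rose from 162 to 253 (median 192) to 291 to 471 (median 380), against 255, 315 and 245. Their terms were 0.97 ± 0.20 (adjusted p = 0.010) and 0.95 ± 0.18 (adjusted p = 0.0026), and neither call was ended by leaving out any single library. Without the 6 saline libraries the terms were 0.81 and 0.69 and both calls were lost, and with the kidney-transcript libraries kept that of Fmo5 was lost. Of 23 tested genes of fatty acid oxidation, 4 were higher and 8 lower than saline on day 1 (17.4% and 34.8%, background 9.96% and 8.59%). On day 5, 7 were higher and none lower (30.4% and 0%, background 10.8% and 6.44%). From day 1 to day 5, 9 rose within NDMA livers and 1 within saline livers, against 5.62% and 3.43% of all genes. The 1 of 23 in saline (4.35%) was near that share. Without the 6 saline libraries 4 were higher and 2 lower on day 5, and with libraries scaled to the same total none of the 23 was lower on day 1. In Abcb1a, Defb1 and Det1 a fall was called in saline livers, and of these only Det1 had a called rise within NDMA livers. The Abcb1a and Defb1 terms were not called within the shared mouse series (1.37 and 1.64). Leaving out either of 2 saline day 5 libraries ended the Abcb1a call, and any of 17 single libraries that of Defb1. Abcb1a, a drug efflux pump, was at medians of 12.8, 18.5 and 18.2 in NDMA livers and 15.9, 13.9 and 8.29 in saline livers.

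Another set of 11 genes was lower than saline on day 1 with a term from day 1 to day 5 above 0, namely Ahcy, Abhd15, Aqp9, Scarb1, Rdh16, Gpld1, Aadat, Clybl, Hsd17b10, Pxmp2 and Cyp4a14, the last of which also belonged to the 13 above. All but Scarb1 rose within NDMA livers by the test. Ahcy, given above, had NDMA minus saline of −1.58 ± 0.15, −0.86 ± 0.16 and −0.38 ± 0.17 (adjusted p = 3.2e-12, 2.8e-05 and 0.094) and a term of 1.19 ± 0.23 (adjusted p = 0.0032). The term was 0.87 without the 6 saline libraries and 1.57 within the shared mouse series. Its call was also lost with the kidney-transcript libraries kept. Clybl, a mitochondrial citramalyl-CoA lyase, rose from 106 to 184 on day 1 (median 147) to 228 to 372 on day 5 (median 275) without overlap, and saline stayed at medians of 247, 272 and 258. Abhd15 was at medians of 8.40, 10.2 and 25.2 against 32.8, 31.1 and 17.9, where saline itself fell by 0.88 ± 0.28. Scarb1, the receptor for high density lipoprotein, was at medians of 87.5, 124 and 120 against 171, 170 and 117. The saline change of Scarb1 was −0.56 ± 0.16, under the fold threshold.

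In 7 genes the excess over saline was present on day 1 and shrank by day 5. They were Saa1, Saa2, Bax, Mbl2, Cyp2a4, Tmem19 and a Rik clone. Leaving out any of 19 single libraries ended the call of the Saa1 term, and any of 14 that of the Rik clone. For Tmem19 any of 2 did so and for Saa2 only 1, while no single library ended the calls of Cyp2a4 and Mbl2. The term of the Rik clone was also not called by edgeR, by DESeq2 or within the shared mouse series. Saa2, an acute phase protein whose reads can be shared with Saa1, was at 216 to 7112 on day 1 (median 291), 86.1 to 296 on day 2 (median 141) and 136 to 332 on day 5 (median 199), and saline rose from a median of 15.0 through 19.5 to 39.4. The value of 7112 came from 1 male, and the treatments did not overlap on any day. NDMA minus saline was 5.19 ± 0.43, 2.88 ± 0.45 and 2.20 ± 0.47, and the term was −2.98 ± 0.64 (adjusted p = 0.022), or −2.66 and not called without the 6 saline libraries. For Cyp2a4, a steroid hydroxylase with the near-identical Cyp2a5, and Mbl2, a lectin of the complement pathway, no change was called within NDMA livers and the saline level rose. Cyp2a4 was at medians of 52.6, 52.1 and 42.4 against 5.85, 10.6 and 31.8, and Mbl2 at 4090, 3836 and 3801 against 1949, 2282 and 3034. Their saline changes were 2.24 ± 0.31 and 0.62 ± 0.13. With the 2 kidney-transcript libraries kept, the Mbl2 saline change was −1.66 and its term 1.48, both with turned direction. The calls of the Saa2 and Cyp2a4 terms were lost in that fit. Over 19 acute phase genes, 9 were higher on each day (background 9.96%, 12.1% and 10.8%), with medians of 0.48, 0.46 and 0.64. On day 1, 2 of the 19 were lower (10.5%, background 8.59%), and none was lower on days 2 and 5.

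Cholesterol synthesis was the group whose difference from saline grew most, and it was the saline livers that moved. Of 22 tested genes 1, 8 and 22 were lower in NDMA livers on days 1, 2 and 5 (background 8.59%, 7.83% and 6.44%). The medians were −0.30, −1.03 and −2.35. From day 1 to day 5, 1 fell within NDMA livers and 19 rose within saline livers, against 6.15% and 3.43% of all genes. The 1 of 22 (4.55%) lay under the background in both cases. Of the 18 genes still tested without the 6 saline libraries, 3, 2 and 5 were lower and none rose in saline. Hmgcs1, given above, stayed at medians of 61.4, 55.2 and 72.3 in NDMA livers, and its values lay below all saline libraries on each day, the libraries that stood apart or not. Cyp51, which demethylates lanosterol, was at medians of 12.8, 6.29 and 8.71 in NDMA livers and at 7.26 to 25, 7.40 to 523 and 24.7 to 654 in saline livers. Its term was −3.46 ± 0.96 (adjusted p = 0.090), and 1 of the 22 genes had a called term.

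A set of 16 genes was lower than saline on day 5 with a term from day 1 to day 5 below 0. In 11 of the 16 all 4 of the saline day 5 libraries named above lay above the other 2, while Camp was among the 5 that did not show this. A1bg was at 0 to 14.1 in the NDMA livers and at 4.26 to 357 in the saline livers of day 5, and Lifr, the receptor of leukaemia inhibitory factor, was at medians of 68.4, 70.1 and 59.5 against 131, 189 and 486. Their terms were −5.42 ± 1.32 (adjusted p = 0.042) and −2.04 ± 0.44 (adjusted p = 0.022), with no called change within NDMA livers. The A1bg call ended on leaving out any of 19 single libraries and within the shared mouse series (−4.86). The Lifr term was not called without the 6 saline libraries (−1.30), within the shared mouse series (−1.84) and without 1 saline day 5 male. Keeping the kidney-transcript libraries also ended both calls. Fasn, the fatty acid synthase, fell within NDMA livers, from a median of 7.96 to 2.14 (−1.45 ± 0.45, adjusted p = 0.019), as saline went from 9.24 to 27.1 (1.27 ± 0.48, adjusted p = 0.073). The NDMA call ended on leaving out 1 NDMA day 5 female. The Fasn term of −2.72 was not called without the 6 saline libraries (−1.59), within the shared mouse series (−2.67) or by edgeR. Leaving out any of 18 single libraries also ended that call.

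The promoters of cholesterol genes held the CCAAT box in 15 of 16 cases (93.8%, against 43.3% of those of tested genes). The Cyp51 promoter is shown, chosen with its values known, with the match 29 bases before the start in capitals (chr5:4104648-4104947, minus strand).
Cyp51: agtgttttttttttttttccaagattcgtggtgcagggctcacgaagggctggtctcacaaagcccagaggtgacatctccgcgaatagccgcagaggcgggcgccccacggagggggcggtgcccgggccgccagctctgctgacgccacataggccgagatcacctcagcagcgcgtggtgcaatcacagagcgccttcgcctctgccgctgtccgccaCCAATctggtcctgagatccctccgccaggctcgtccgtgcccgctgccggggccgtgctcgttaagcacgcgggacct

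Part of the response was called on every day with no called treatment by day term. Of 1600 genes called higher on at least 1 day, 590 were higher on all 3 and 584 of these (36.5% of the 1600) had no called term. Of 1292 called lower on at least 1 day, 288 were lower on all 3 and 285 (22.1% of the 1292) had no called term. Within NDMA livers 81 of the 584 rose and 22 fell from day 1 to day 5, and 59 of the 285 rose and 13 fell. Of all genes tested, 5.62% rose and 6.15% fell. Another 174, 258 and 210 genes were higher on day 1, day 2 or day 5 alone, and 305, 203 and 177 were lower on 1 day alone. A call on 1 day alone is no test of a difference between days. Ubd, a ubiquitin-like protein induced by interferon gamma, led the 584 genes, at 138 to 817 on day 1 (median 208), 295 to 1118 on day 2 (median 525) and 306 to 1038 on day 5 (median 552), against 0 to 12.1 in saline. Its difference was 5.41 ± 0.42, 6.61 ± 0.44 and 6.89 ± 0.46, and its rise within NDMA livers of 1.17 ± 0.42 did not pass the test (adjusted p = 0.052). Cox6b2, a testis isoform of a cytochrome c oxidase subunit, was at medians of 196, 217 and 182 against 7.73, 10.4 and 5.65, and Ly6a, an interferon-responsive surface protein, at 137, 189 and 257 against 6.80, 12.1 and 13.4. Of these, Ly6a rose within NDMA livers from day 1 to day 5 (0.78 ± 0.26, adjusted p = 0.036), a call that ended on leaving out any of 9 single libraries.

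Other cell types the tissue could hold gave these values, to be read against the background of 9.96%, 12.1% and 10.8% of genes higher and 8.59%, 7.83% and 6.44% lower on the 3 days. Of 16 tested bile duct markers, 11, 10 and 10 were higher and 1 lower on each day, with Krt7, Krt19, Epcam and Sox9 under the filter and Anxa5 the most abundant member. Of 20 genes of fibrosis and stellate cells, 5, 5 and 5 were higher and 6, 5 and 5 lower, with 1 higher and 2 lower on day 5 without the 6 saline libraries. Of 14 endothelial genes 1, 2 and 2 were higher (7.14%, 14.3% and 14.3%, near the background) and 6, 3 and 2 lower. Of 8 erythroid genes, 5, 4 and 6 were lower and none higher, with 1 lower on day 5 without the 6 saline libraries. The summed erythroid level of NDMA livers was at medians of 22627, 21066 and 29556 against 37189, 31730 and 46241 in saline. Their part in the other results was not tested. Ribosomal protein genes (17 tested) had 1, 0 and 0 members called, and the circadian clock genes (14 tested) had no called change between days in either treatment.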

How the data were processed

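The deposited values were normalized signal: per the study's methods, the authors aligned 3′ digital gene expression reads with STAR to GRCm38/mm10, took counts for each gene from ESAT, and scaled each library by 1 DESeq2 size factor, with Mgmt-/- mice normalized by themselves. Versions are not given in the sources used here. Whole reads were recovered (tolerance 0.01, 100% of values whole) in 44 of 45 libraries, all but 1 NDMA day 1 female. The model was fitted with limma 3.58.1 (R 4.3.3, trend and robust) on log2(value + 1) over 6 groups of treatment and day with sex as a covariate, for the 9571 of 19540 genes whose mean over the libraries was 5 or more. The adjusted p-values in the text are Benjamini-Hochberg values from limma. edgeR 4.0.16 (quasi-likelihood) and DESeq2 1.42.0 were run as alternatives on the recovered reads. Simulated data with 200 of 9571 genes changed were used to test the treatment by day term from day 1 to day 5. In them limma recovered 54.0% of 2-fold and 97.0% of 4-fold changes, and 3.82% of its calls were false. These rates describe the simulated data only and were not split by gene level. Among the measured saline libraries of day 5, some stood apart together. Whether the rates hold for the measured term was not tested. Saline libraries of day 5 with Kap over 1000 were left out.

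The members, gene lists and classes were chosen with earlier results of these data known. For each class of time course the genes with the largest term and a mean of at least 20 in a group were named, 8 for higher and 4 for lower classes, together with the members of each list with the largest positive and negative term and a few genes named in any case, of which 1 is not reported here. Other genes were named after their values were seen, to show members of a list or a step. Lists were described by counts and medians, with no set test. Promoters were matched by symbol to RefSeq (GRCm38.p6), and those printed were chosen by list, since the classes held few genes. Alternatives covered the pseudocount, the filter, the covariate, the scaling, the 2 kidney-transcript libraries, the tools, the fold threshold, a block of library numbers and leaving out each library. After the data were seen, fits without the 6 saline libraries with Hmgcs1 over 300, within 1 series of mouse numbers and without the library whose reads were not recovered were added. Whether the mice of a group were littermates is not known here, so p-values measure the spread between these mice. The order of pooling is not known, and saline and NDMA libraries carried separate runs of library numbers (4 to 48 and 52 to 96, with 24 libraries to a pool), so a pool effect and the treatment cannot be told apart.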

Additional observations from a re-analysis of the deposited data

Results flagged for a closer look

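Among 25 genes examined in this way, each in 6 groups of treatment and day, 13 of 150 sets of values held 1 library that stood far from the rest of its group, measured as its gap to the nearest library over the range of the group, on the log2(value + 1) scale. Chance alone marks about 1 in 20 such sets. In NDMA livers of day 1, 1 male held both acute phase genes far above the other 7, with Saa1 at 10723 against at most 2426 and Saa2 at 7112 against at most 720. Another male of that day had the lowest Cyp4a14, at 133 against 192 or more, and 1 female the lowest Cdkn1a, at 347 against 497 or more. Ahcy was at 56.3 in the female whose reads could not be recovered and at 117 or more in the others. In NDMA livers of day 2, H2-Aa reached 2403 in 1 male against at most 882. In NDMA livers of day 5, 1 male was lowest in both Cyp2e1 (383 against 1051 or more) and Abhd15 (12.5 against 21.9 or more), and other libraries were highest in A1bg (7.03), Lifr (92.8) and Alb (149832). In saline livers of day 2, 1 female was highest in Cd3g (19.2) and another female in Mki67 (44.5). Their sources were not tested.

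The change between days differed between NDMA and saline livers, by the test of the treatment by day term, for 3 genes between day 2 and day 5 and for 51 between day 1 and day 5. The 3 genes were Lect2, Etnk2 and Ltf. Without the 6 saline libraries of high Hmgcs1, A1bg, Aacs, Ces4a and Serpina9 were not tested and none of the others was called, and this comparison then had 2 saline libraries on day 5.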

How the results depend on the processing

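Counts are of genes called, and an alternative is given where it moved a count by more than 1.5 times. As reported, the counts were 442, 107 and 1127 for the NDMA changes (day 1 to 2, 2 to 5 and 1 to 5), 17, 0 and 929 for the saline changes, 1775, 1906 and 1654 for NDMA against saline on days 1, 2 and 5, 0, 3 and 51 for the treatment by day terms over the same steps as the changes, and 17 by the F test. The sets were 7 higher early, 13 higher late, 584 higher on all 3 days with no called term (steady), 590 higher on all 3 days, 1600 higher on any day, 11 lower early, 16 lower late, 285 steady lower, 288 lower on all 3 days and 1292 lower on any day, with no day 2 trough. A pseudocount of 5 gave 7 terms from day 2 to day 5 and 35 genes by the F test of both terms. No filter gave 1 term from day 1 to day 2, 1 term from day 2 to day 5 and 12 higher early genes. A mean of at least 20 gave 1254 genes for NDMA against saline on day 2, 1085 genes for NDMA against saline on day 5, 387 steady higher genes, 393 genes higher on all 3 days, 944 genes higher on any day, 17 lower early genes and 37 genes by the F test of both terms. No covariate gave 31 genes by the F test of both terms. Scaling to the same total gave 1096 NDMA changes from day 1 to day 2, 2417 NDMA changes from day 1 to day 5, 1627 saline changes from day 1 to day 5, 13 higher early genes, 2628 genes higher on any day, 157 steady lower genes, 160 genes lower on all 3 days, 758 genes lower on any day and 32 genes by the F test of both terms. Leaving the 50 most abundant genes out of that total gave 767 NDMA changes from day 1 to day 2, 1837 NDMA changes from day 1 to day 5, 1510 saline changes from day 1 to day 5, 11 higher early genes and 34 genes by the F test of both terms. Keeping the 2 kidney-transcript libraries gave 150 NDMA changes from day 1 to day 2, 22 NDMA changes from day 2 to day 5, 613 NDMA changes from day 1 to day 5, 2 saline changes from day 1 to day 2, 0 terms from day 2 to day 5, 27 terms from day 1 to day 5, 4 higher early genes, 6 lower early genes, 4 lower late genes, 119 steady lower genes, 119 genes lower on all 3 days and 7 genes by the F test of both terms. edgeR gave 56 saline changes from day 1 to day 2, 6 terms from day 2 to day 5 and 36 genes by the F test of both terms. DESeq2 gave 199 NDMA changes from day 2 to day 5, 108 saline changes from day 1 to day 2, 2 saline changes from day 2 to day 5, 17 terms from day 1 to day 2, 8 terms from day 2 to day 5, 116 terms from day 1 to day 5, 12 higher early genes, 31 higher late genes, 1 day 2 trough, 24 lower early genes and 44 lower late genes. A block of library numbers gave 1 term from day 1 to day 2, 5 terms from day 2 to day 5, 119 terms from day 1 to day 5 and 76 genes by the F test of both terms. Leaving out the library without recovered reads gave 27 genes by the F test of both terms. Leaving out the 6 saline libraries gave 3 saline changes from day 1 to day 2, 6 saline changes from day 2 to day 5, 24 saline changes from day 1 to day 5, 931 genes for NDMA against saline on day 5, 0 terms from day 2 to day 5, 0 terms from day 1 to day 5, 0 higher early genes, 0 higher late genes, 0 lower early genes, 0 lower late genes, 186 steady lower genes, 186 genes lower on all 3 days and 0 genes by the F test of both terms. The shared mouse series gave 42 saline changes from day 1 to day 2, 19 terms from day 1 to day 2, 9 terms from day 2 to day 5, 106 terms from day 1 to day 5, 31 higher early genes, 8 higher late genes, 60 lower early genes, 4 lower late genes and 66 genes by the F test of both terms. Dropping the fold threshold gave 715 NDMA changes from day 1 to day 2.

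Leaving out 1 library at a time gave 236 to 634 NDMA changes from day 1 to day 2 (as reported 442), 58 to 158 NDMA changes from day 2 to day 5 (as reported 107), 4 to 94 saline changes from day 1 to day 2 (as reported 17), 0 to 52 saline changes from day 2 to day 5 (as reported 0), 560 to 1103 saline changes from day 1 to day 5 (as reported 929) and 0 to 1 term from day 1 to day 2 (as reported 0). It gave 0 to 7 terms from day 2 to day 5 (as reported 3), 15 to 103 terms from day 1 to day 5 (as reported 51), 3 to 12 higher early genes (as reported 7), 3 to 25 higher late genes (as reported 13), 5 to 28 lower early genes (as reported 11), 3 to 33 lower late genes (as reported 16) and 12 to 45 genes by the F test of both terms (as reported 17). The lowest count of NDMA changes from day 1 to day 2 came without 1 NDMA day 1 male, that from day 2 to day 5 without 1 NDMA day 2 library, and that of saline changes from day 1 to day 5 without 1 saline day 1 library. Without 1 saline day 5 male the terms from day 1 to day 5 were 15, and without 1 saline day 5 female 103. The count of NDMA against saline on day 1 stayed within 1.5 times under each alternative run. The cause of these moves was not tested, beside the smaller number of genes or libraries in the stricter filter, the shared series and the fits that leave libraries out. Directions turned for 5 named values. With the 2 kidney-transcript libraries kept, the Mbl2 term became 1.48 and its saline change −1.66, the saline change of Fgb −1.69 and NDMA minus saline of Cyp1a2 on day 5 0.74. Within the shared series the NDMA change of Gsta1 from day 1 to day 5 was −0.17. With the same total per library, the split was 1894 higher and 422 lower for NDMA against saline on day 1, 65 and 1031 for NDMA livers from day 1 to day 2, and 150 and 1477 for saline livers from day 1 to day 5. The medians over all genes then moved by 0.246, −0.25 and −0.279.

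No paired analysis was possible because each library number is used once, so no number is shared between groups. The block named above stands for ranges of library numbers and was run on the changes between days and the terms, since ranges and treatment cannot be told apart. Limits on the time courses include the 6 saline libraries, which leave 2 saline libraries on day 5 when removed, and the mice of day 1 from other series. Depth is a further limit, as genes under a mean of 5 were not tested. A lost call in a smaller fit does not show an equal change.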
